A study of Mus musculus with 8 samples.

Results

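The collagen chain genes were followed in mCherry+CD73+ cells of the growth plate from mice given SAG or its vehicle DMSO. Members were all genes whose symbol is Col, a number, a and a number, except *Col10a1*, which gave 42 of the 16536 genes in the table. By collagen type they were divided into 7 cartilage chains (*Col2a1*, *Col9a1*, *Col9a2*, *Col9a3*, *Col11a1*, *Col11a2* and *Col27a1*), 6 chains of types I, III and V, 6 chains of type IV and 23 chains of other types. Expression of 40 of them was high enough to be tested, and *Col19a1* and *Col6a4* were not tested. All 42 had at least 1 count.

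Each library was made from the sorted cells of a single Pthrp-mCherry mouse, and each group, DMSO and SAG, had 4 mice. SAG activates the hedgehog (Hh) pathway by binding Smoothened, the transducer of the Hh signal, and DMSO is the vehicle in which it is dissolved. Both groups received i.p. injections once a day from postnatal day (P) 30 to P36 and were sacrificed at P38, and both carried the Pthrp-mCherry allele. For each mouse the cells came from a pair of femoral growth plates, which were digested with collagenase before FACS, and the samples are labelled as metaphyseal growth plate. The mCherry reporter follows expression of *Pthlh*, which encodes PTHrP, and CD73 is encoded by *Nt5e*, so the libraries describe the cells that pass both gates and not the whole growth plate. Mice of both sexes were used and sex was not a factor of the design. *Pthlh* lay between 14.9 and 29.9 CPM (counts relative to the TMM-scaled library total) over the 8 libraries, *Nt5e* between 149 and 269.6 CPM, and the chondrocyte gene *Acan* between 1249.5 and 7032 CPM, so the markers of the sort and of cartilage were present in every library. *Nt5e* was at 184, 268, 188 and 270 CPM in DMSO replicates 1 to 4 and 149, 149, 165 and 174 CPM in SAG replicates 1 to 4. Every SAG-treated mouse was below every DMSO-treated mouse for *Nt5e*, as in 3.84% of all tested genes. Whether the sorted cells differ between the groups was not tested.

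Library totals were between 24971992 and 46593090 counts. DMSO replicate 4 had the lowest total and the fewest genes with a count (14416, against 15524 to 16285 in the other libraries). On the CPM scale 3 counts correspond to 0.0670 to 0.114 CPM, which covers counting error only. Each cartilage chain had at least 18532 counts in every library, so counting error was small beside the spread between mice. Libraries hold RNA of many cells, so a smaller share of collagen-expressing cells and less collagen RNA per cell cannot be told apart.

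Collagens are proteins whose polypeptide chains are wound together into a triple helix, and each chain has its own gene. Type II collagen, a homotrimer of the *Col2a1* product, forms the fibrils of cartilage, type XI chains lie within these fibrils and type IX chains decorate their surface. Type I collagen, from *Col1a1* and *Col1a2*, is the main fibril of bone, tendon and skin, and types III and V accompany it. Type IV collagen forms the network of basement membranes. In the growth plate, chondrocytes lay down the type II, IX and XI matrix through which bones elongate.

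Counts on collagen chains made up 12.1%, 9.99%, 8.54% and 5.13% of all counts in DMSO replicates 1 to 4. In SAG replicates 1 to 4 they made up 5.38%, 2.27%, 4.68% and 5.25%. The cartilage chains carried most of this, with 9.84%, 8.75%, 7.51% and 4.51% of all counts in the DMSO libraries and 4.55%, 1.65%, 4.00% and 4.44% in the SAG libraries. DMSO replicates 1 to 3 were above every SAG-treated mouse, DMSO replicate 4 lay within the range of the SAG group, and SAG replicate 2 was the lowest of all 8. Chains of types I, III and V held 0.199% to 1.26% of all counts, with the highest share in DMSO replicate 1, and type IV chains held 0.00992% to 0.0504%.

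**Figure D1:**
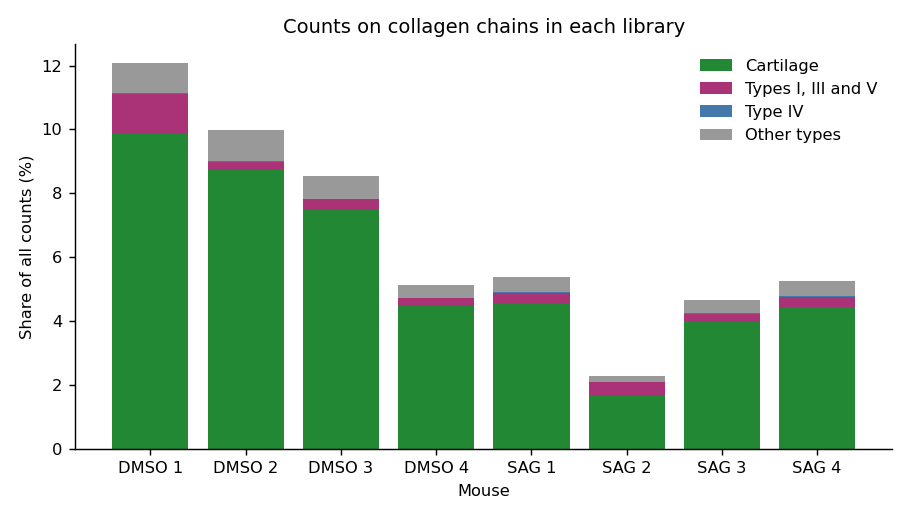
Share of all counts (%) on collagen chains in each library, stacked by group, for DMSO and SAG replicates 1 to 4. Bars range from 12.1% in DMSO replicate 1 down to 2.27% in SAG replicate 2, and the cartilage chains form most of every bar.

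The make-up of the collagen RNA is given by shares of collagen counts. Cartilage chains were 72.9% to 87.9% of collagen counts, with the lowest share in SAG replicate 2, where types I, III and V reached 19.5%. *Col2a1* alone was 50.5% to 66.7% of collagen counts. Among the 7 cartilage chains, *Col2a1* held 70.0%, 69.0%, 72.3% and 75.9% of their counts in the DMSO libraries and 69.1%, 69.4%, 71.7% and 72.4% in the SAG libraries, and these ranges overlapped. *Col11a1* held 7.85% to 9.79% of the cartilage collagen counts and *Col27a1* 1.68% to 2.60%.

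Levels of different chains were compared as CPM per kb of the principal transcript. In DMSO-treated mice *Col2a1* came first with 10520.1 ± 3027 CPM per kb (mean ± SD, n = 4). It was followed by *Col9a1* with 1136 ± 397, *Col11a2* with 927 ± 419.6, *Col11a1* with 838 ± 301, *Col9a2* with 830 ± 351 and *Col9a3* with 706 ± 307 CPM per kb. *Col2a1* was above *Col9a1*, and *Col9a1* above *Col11a2*, in 8 of 8 libraries, whereas *Col11a2* was above *Col11a1* in 6 and *Col11a1* above *Col9a2* in 6, so the order of these last 3 was not fixed between mice. The type VI chain *Col6a2*, at 362 ± 83.7 CPM per kb, was the highest chain outside the cartilage group by this mean, and *Col9a3* exceeded it in 8 of 8 libraries. *Col1a1* came next with 337 ± 447 CPM per kb, a mean smaller than its SD. *Col27a1*, the remaining cartilage chain, had 191 ± 66.4 CPM per kb and stood between *Col6a3* and *Col12a1*, which it did not separate from in every library.

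No collagen chain passed the adjusted threshold in the main test. By edgeR's quasi-likelihood test with Benjamini-Hochberg adjustment over 15421 genes, 0 of 40 chains were lower and 0 were higher with SAG at an adjusted p under 0.05, where 0.266% of all tested genes were lower and 2.62% were higher. At an unadjusted p under 0.05, 11 chains were lower and 0 were higher, against 6.5% of all tested genes that were lower at this level. These 11 were all 7 cartilage chains together with *Col6a1*, *Col6a2*, *Col6a3* and *Col12a1*. DESeq2 called 5 chains lower (background 3.35% of genes) and limma voom with quality weights called 6 lower (background 2.58%), and neither called any higher. Without DMSO replicate 4, edgeR called 9 chains lower (background 2.17%), namely the 7 cartilage chains, *Col6a3* and *Col15a1*. Every SAG-treated mouse was below every DMSO-treated mouse for 1 tested chain, *Col4a3*, where 3.84% of all tested genes were ordered in this way.

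The estimates themselves were mostly negative. The log2 fold change, SAG against DMSO, was below 0 for 35 of 40 chains, or 87.5%, compared with 54.8% of all tested genes, and the median over the chains was -0.77 beside -0.08 over all tested genes. Without DMSO replicate 1 the median over the chains was -0.34 beside -0.04, and with the replicate number as a block it was -0.48 beside 0.02. The cartilage group had a median of -1.02, types I, III and V -0.57, type IV -0.71 and the other types -0.76. When libraries were scaled on 17 chondrocyte genes that are no collagens instead of TMM, the median of all genes moved to 0.89, the median over the chains was 0.34, the cartilage median was -0.17, and those of types I, III and V (0.49), type IV (0.28) and the other types (0.40) changed sign. Relative to the median of all genes, the cartilage median was -0.94 with TMM and -1.07 with this scaling, and that of types I, III and V was -0.48 and -0.41. A change of scaling shifts the estimates of all genes by nearly the same amount, so these differences had to be alike. Their likeness says nothing about which scaling holds. Estimates spread over -1.21 to -0.91 in the cartilage group and over -1.07 to 0.37 in the other types.

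**Figure D2:**
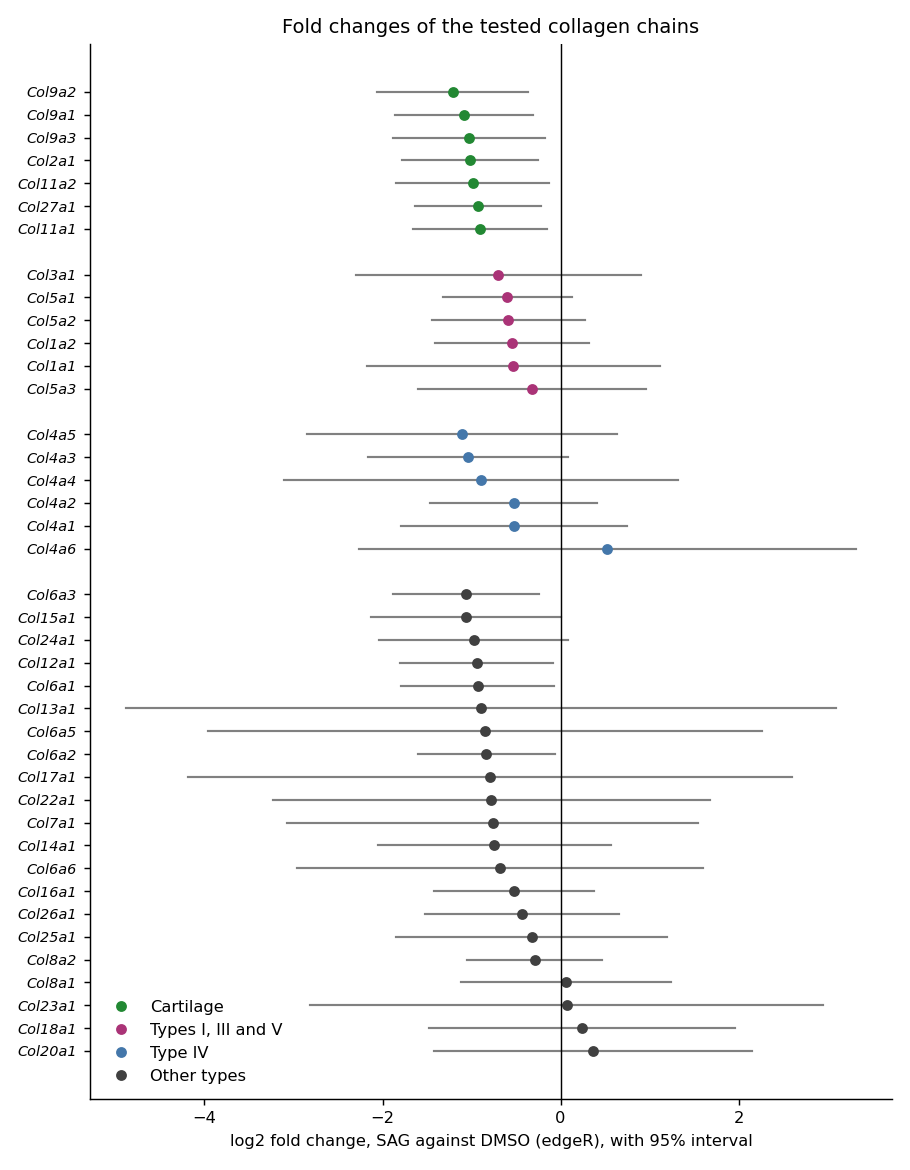
Log2 fold change (SAG against DMSO) of each of the 40 tested chains from edgeR, with 95% intervals as lines and groups by colour. The 7 cartilage chains lie between -1.21 and -0.91 with intervals below 0, whereas all intervals of types I, III, V and IV include 0. When scaled on chondrocyte genes the medians of the groups other than cartilage are above 0.

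*Col2a1* (chr15:97975602-98004695, minus strand, GRCm38), which encodes the fibril-forming chain of cartilage, was measured at 68832, 59725, 53759 and 32463 CPM in DMSO replicates 1 to 4. In SAG replicates 1 to 4 it was at 31042, 11759, 28779 and 34149 CPM. DMSO replicates 1 to 3 stood above all SAG-treated mice, and DMSO replicate 4 was below SAG replicate 4. The means were 53695 ± 15452 CPM and 26432 ± 10027 CPM (SD, n = 4 each), and the log2 fold change was -1.02 (SE 0.35, adjusted p = 0.158) by edgeR, with a 95% interval of -1.79 to -0.26. Its adjusted p ran from 0.0221 to 0.311 over 15 other settings, and was 0.0221 by DESeq2, 0.0412 by limma voom and 0.0430 by edgeR without DMSO replicate 4. Here and for the other chains, the 15 settings do not include the scaling on chondrocyte genes.

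The chains of type XI collagen, which form heterotrimers within the type II fibril, showed a like arrangement of mice. *Col11a1* (chr3:114030540-114220718, plus strand) was at 8532, 7803, 6000.0 and 3355 CPM in DMSO replicates 1 to 4 and 4163, 1659, 3724 and 4144 CPM in SAG replicates 1 to 4. *Col11a2* (chr17:34039437-34066685, plus strand) was at 7138, 6213, 4689.6 and 1962 CPM and 3277, 1211, 2736 and 2861 CPM, respectively. For both genes DMSO replicate 4 was the lowest control mouse and lay inside the SAG range, and SAG replicate 2 was the lowest of the 8. The edgeR log2 fold change was -0.91 (SE 0.34, adjusted p = 0.208) for *Col11a1* and -0.99 (SE 0.39, adjusted p = 0.238) for *Col11a2*. Without DMSO replicate 4 the adjusted p by edgeR was 0.0390 and 0.0261, and over 15 other settings it ran from 0.0390 to 0.410 for *Col11a1* and from 0.0261 to 0.485 for *Col11a2*.

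Type IX collagen is a heterotrimer of the products of *Col9a1* (chr1:24177610-24252684, plus strand), *Col9a2* (chr4:121039385-121055322, plus strand) and *Col9a3* (chr2:180597790-180622189, plus strand) and sits on the surface of type II fibrils. *Col9a1* was at 5501, 5419.5, 4271 and 2232 CPM in DMSO replicates 1 to 4 and at 2514, 927, 2183 and 2587 CPM in SAG replicates 1 to 4. *Col9a2* was at 3440.0, 3019, 2122 and 1126 CPM in the DMSO group and 1520.3, 473, 1007 and 1191 CPM in the SAG group. *Col9a3* was at 3020.1, 2685, 1992 and 906 CPM in the DMSO group and 1435, 485, 1023 and 1262 CPM in the SAG group. In all 3 genes DMSO replicates 1 to 3 exceeded every SAG-treated mouse and DMSO replicate 4 did not. *Col9a2* had the lowest estimate of all 40 chains, -1.21 (SE 0.39, adjusted p = 0.130) by edgeR, with an adjusted p of 0.0179 by DESeq2 and 0.0289 by limma voom, in a range of 0.0179 to 0.284 over 15 other settings. The edgeR estimates of *Col9a1* and *Col9a3* were -1.09 (SE 0.35, adjusted p = 0.139) and -1.03 (SE 0.39, adjusted p = 0.206). For *Col9a1* the adjusted p was 0.0219 by DESeq2 and 0.0329 by limma voom, in a range of 0.0219 to 0.304 over 15 other settings. For *Col9a3* it was 0.0560 by DESeq2 and 0.0487 by limma voom, in a range of 0.0280 to 0.430 over 15 other settings. Without DMSO replicate 4 the adjusted p by edgeR was 0.0225 for *Col9a1*, 0.0196 for *Col9a2* and 0.0280 for *Col9a3*.

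*Col27a1* (chr4:63214004-63334991, plus strand), a fibrillar collagen of cartilage, was at 1854, 1689.8, 1546 and 717 CPM in DMSO replicates 1 to 4 and 943, 440.4, 695 and 978 CPM in SAG replicates 1 to 4. Here too the 3 highest mice were DMSO replicates 1 to 3, and DMSO replicate 4 lay above SAG replicates 2 and 3 and below SAG replicates 1 and 4. Its edgeR log2 fold change was -0.93 (SE 0.32, adjusted p = 0.166), and its adjusted p was 0.0392 by DESeq2, 0.0207 by limma voom and 0.0173 by edgeR without DMSO replicate 4, in a range of 0.0173 to 0.380 over 15 other settings. Over the 15 other settings and 7 chains, all 105 edgeR, DESeq2 or voom estimates of the cartilage chains were below 0, from -1.44 to -0.68. The scaling on chondrocyte genes is not among these settings.

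**Figure D3:**
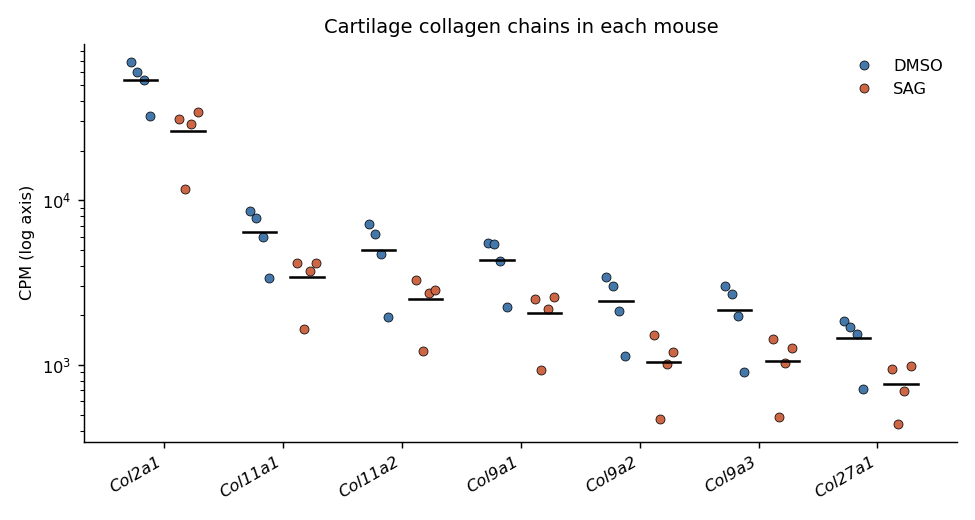
CPM on a log axis of the 7 cartilage chains in each DMSO-treated (blue) and SAG-treated (orange) mouse, left to right by replicate number, with group means as bars. In every chain DMSO replicates 1 to 3 lie above the 4 SAG-treated mice, DMSO replicate 4 lies among them, and SAG replicate 2 is lowest.

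Stretches before the start sites of 4 cartilage chains, with *Col3a1* of the type III fibril beside them, are shown because these chains had similar estimates and the stretches differ in base composition. They are the 100 bases before the RefSeq start (GRCm38.p6), read on the strand of the gene, with capitals for the GC box GGGCGG or its complement CCGCCC, and none overlaps an exon of the GENCODE annotation. The *Col27a1* stretch lies within the annotated gene.
*Col9a1* (chr1:24177510-24177609, plus strand): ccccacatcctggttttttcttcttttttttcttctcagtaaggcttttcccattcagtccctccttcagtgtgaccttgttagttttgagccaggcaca
*Col11a1* (chr3:114030440-114030539, plus strand): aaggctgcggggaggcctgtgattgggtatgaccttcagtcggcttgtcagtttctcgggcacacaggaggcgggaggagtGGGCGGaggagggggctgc
*Col11a2* (chr17:34039038-34039137, plus strand): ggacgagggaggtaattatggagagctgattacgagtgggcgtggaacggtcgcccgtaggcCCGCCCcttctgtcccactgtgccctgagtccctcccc
*Col27a1* (chr4:63215312-63215411, plus strand): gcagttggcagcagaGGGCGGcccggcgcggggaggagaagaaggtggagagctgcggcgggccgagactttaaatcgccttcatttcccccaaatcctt
*Col3a1* (chr1:45311438-45311537, plus strand): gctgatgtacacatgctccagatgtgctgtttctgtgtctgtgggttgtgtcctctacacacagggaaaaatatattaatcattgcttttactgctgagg
The GC content of these stretches was 44% for *Col9a1*, 65% for *Col11a1*, 64% for *Col11a2*, 63% for *Col27a1* and 43% for *Col3a1*. Within the full windows, from 250 bases before to 50 after the start, GGGCGG on either strand was found in 4 of 6 cartilage windows and 23 of 36 collagen windows, compared with 35.7% of 32851 windows of all genes. The TATA box core TATAAA was found in 1 of 6 cartilage and 4 of 36 collagen windows, compared with 13.6% of all. The cores ACAAAG and ACAATG, to which HMG-box proteins such as Sox9 bind, were found in 0 of 6 cartilage windows and in 3 and 0 of 36 collagen windows, compared with 18.7% and 12.6% of all. Windows were given for 33 of 42 chains, 5 of them cartilage chains, and not for *Col2a1* and *Col9a3*. A match describes these letters only.

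Chondrocyte genes other than collagens varied between the mice in a like way. The summed level of 17 such genes was 11547 to 27649.8 CPM in DMSO-treated and 5068 to 17674 CPM in SAG-treated mice, lowest in DMSO replicate 4 and in SAG replicate 2 of their groups, and 16 of 17 had a log2 fold change below 0 with a median of -0.84 and 0 called by edgeR. At an unadjusted p under 0.05, 11 of the 17 were lower, and DESeq2 called 5 lower and limma voom 7. Over all tested genes 54.8% were below 0 and 6.5% were lower at this unadjusted p by edgeR. The share of all genes called lower was 0.266% by edgeR, 3.35% by DESeq2 and 2.58% by limma voom. Markers of neutrophils had a sum of 5417 to 15335 CPM in the DMSO group and 29088 to 46191 CPM in the SAG group. Of 16 neutrophil genes, 11 were higher with SAG by edgeR (12 by DESeq2 and by limma voom) and the median log2 fold change was 2.01. Over all genes, edgeR called 2.62% higher, DESeq2 812 of 12311 and limma voom 995 of 15421. DMSO replicate 4 had the highest neutrophil sum of the control mice and SAG replicate 2 the highest of all. B lineage genes summed to 118 to 531 CPM and 24.7 to 57.6 CPM, and 4 of 10 were lower by edgeR, 8 by DESeq2 and 3 by limma voom. The part of these cells in the collagen values was not tested.

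Osteoblast genes other than collagens summed to 7079 to 13077 CPM in the DMSO group and 2313 to 9773 CPM in the SAG group, with 11 of 12 log2 fold changes below 0. Most of this sum was *Sparc*, at 5143 to 10683 CPM in the DMSO group and 1595 to 7526 CPM in the SAG group. The sum therefore says little about the osteoblast genes of lower level. Fibroblast and tendon genes summed to 1925 to 4389.9 CPM and 945 to 2796 CPM (10 of 12 below 0, 1 called higher), marrow stroma genes to 259 to 499 CPM and 308 to 346 CPM (7 of 10 below 0), and endothelial genes to 59.5 to 139 CPM and 61.6 to 77.3 CPM (7 of 10 below 0). Most of the fibroblast and tendon sum was *Fmod*, at 1557 to 3179 CPM in the DMSO group and 612 to 2196 CPM in the SAG group. Erythroid genes summed to 1196 to 10121 CPM and 619 to 6163 CPM (9 of 10 below 0) and osteoclast genes to 222 to 267 CPM and 176 to 245 CPM (4 of 5 below 0). No gene of the osteoblast, marrow stroma, endothelial, erythroid or osteoclast lists was called by edgeR, although 4 osteoblast, 1 marrow stroma, 0 endothelial, 0 erythroid and 1 osteoclast genes were lower at an unadjusted p under 0.05. DESeq2 called 3 osteoblast genes lower and none of the other 4 lists, and limma voom called 2 osteoblast genes and 1 marrow stroma gene lower. Over all tested genes 54.8% were below 0, 6.5% were lower at the unadjusted p, and DESeq2 called 3.35% and limma voom 2.58% lower. The lists of this paragraph hold markers of other collagen-making or neighbouring cells, and their part in the collagen values was not tested.

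Type I collagen, the fibril of bone, varied widely within both groups. *Col1a1* (chr11:94936224-94953042, plus strand), which encodes the more abundant chain of the molecule, was at 5971, 667, 832 and 535 CPM in DMSO replicates 1 to 4 and 1020.1, 3008, 765 and 751 CPM in SAG replicates 1 to 4. DMSO replicate 1 was far above the other control mice and SAG replicate 2 far above the other SAG-treated mice, so the groups overlapped. *Col1a2* (chr6:4504814-4541544, plus strand), which encodes the partner chain, was at 2760.3, 707, 1053 and 720.3 CPM and 911, 866, 715 and 1099 CPM, with only DMSO replicate 1 standing apart. The edgeR log2 fold changes were -0.53 (SE 0.75, adjusted p = 0.811) and -0.55 (SE 0.40, adjusted p = 0.570). Without DMSO replicate 1 they became 1.03 (adjusted p = 0.348) and 0.12 (adjusted p = 0.877) by edgeR, so their sign rested on that mouse. The adjusted p of *Col1a1* ran from 0.348 to 0.985 over the other settings that gave one, and DESeq2 gave none. For *Col1a2* it ran from 0.293 to 0.877 over 15 other settings.

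*Col3a1* (chr1:45311538-45349706, plus strand), the type III chain of vessels and loose connective tissue, was at 2488, 384, 312 and 110.2 CPM in the DMSO group and 646, 354, 385 and 643 CPM in the SAG group. DMSO replicate 1 was again highest, and each of the other 3 control mice was below at least 3 of the 4 SAG-treated mice. Its edgeR log2 fold change was -0.70 (SE 0.73, adjusted p = 0.728) with all mice and 0.92 (adjusted p = 0.317) without DMSO replicate 1, in a range of 0.317 to 0.949 over 15 other settings. *Col5a1*, *Col5a2* and *Col5a3* encode type V chains, which regulate the diameter of type I fibrils. *Col5a1* was at 607, 271, 257 and 225 CPM and 283, 144, 196 and 276 CPM, and *Col5a2* at 670.3, 339, 533 and 280.4 CPM and 239, 150.2, 256 and 570.2 CPM. Their groups overlapped, and the edgeR estimates were -0.60 (SE 0.33, adjusted p = 0.426) and -0.59 (SE 0.39, adjusted p = 0.530). *Col5a3*, the least abundant, ranged from 10.6 to 70.1 CPM in DMSO-treated and 12.2 to 44.9 CPM in SAG-treated mice, and its estimate of -0.32 turned to 0.57 without DMSO replicate 1. The median of the 6 chains, -0.57 with all mice, was 0.35 without that mouse.

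**Figure D4:**
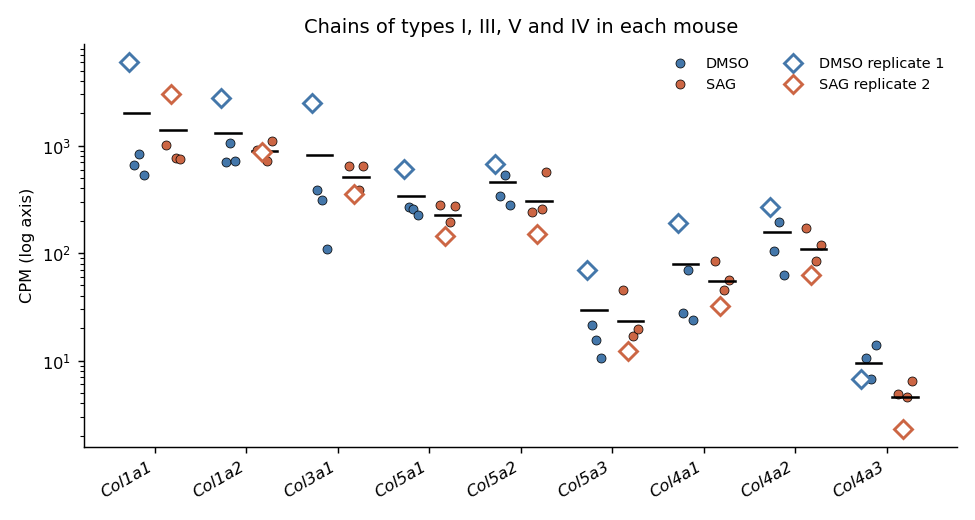
CPM on a log axis of chains of types I, III, V and IV in each DMSO-treated (blue) and SAG-treated (orange) mouse, with group means as bars and DMSO replicate 1 and SAG replicate 2 as open diamonds. DMSO replicate 1 is the highest mouse in 8 of these 9 chains and SAG replicate 2 stands high in *Col1a1* but lowest of the SAG group in 7 of the other 8.

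Type IV collagen of basement membranes is encoded by 3 pairs of genes that lie head to head. *Col4a1* and *Col4a2* on chromosome 8 have first bases that overlap by 22 bases in the annotation, *Col4a4* and *Col4a3* on chromosome 1 are 71 bases apart, and *Col4a6* and *Col4a5* on the X chromosome are 1308 bases apart. *Col4a1* was at 192, 27.5, 69.6 and 24.1 CPM in the DMSO group and 84.3, 32.0, 45.3 and 56.6 CPM in the SAG group. *Col4a2* was at 271, 104, 194 and 62.3 CPM and 173, 63.1, 85.0 and 118 CPM. In both, DMSO replicate 1 was highest and the groups overlapped, and the edgeR log2 fold changes were -0.52 (SE 0.58, adjusted p = 0.749) and -0.53 (SE 0.43, adjusted p = 0.629). Without DMSO replicate 1 the estimate of *Col4a1* was 0.44.

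*Col4a3*, a chain of the network found in kidney glomeruli, was the one tested chain whose groups did not overlap, at 6.71, 10.6, 6.70 and 13.9 CPM in the DMSO group and 4.89, 2.33, 4.56 and 6.52 CPM in the SAG group, and the gap between the lowest control mouse and the highest SAG-treated mouse was small. Its edgeR log2 fold change was -1.04 (SE 0.51, adjusted p = 0.358), and the adjusted p ran from 0.163 to 0.682 over 15 other settings. *Col4a4*, its partner across the shared start region, was at 10.8, 10.1, 4.62 and 0.0380 CPM and 2.59, 2.16, 4.66 and 4.27 CPM. In DMSO replicate 4 *Col4a4* had 1 count while *Col4a3* had 365, a ratio of 365 beside 0.623 to 1.89 in the other 7 libraries. *Col4a5* ranged from 1.10 to 21.8 CPM in the DMSO group and 1.95 to 10.5 CPM in the SAG group, with an edgeR log2 fold change of -1.10 (SE 0.80, adjusted p = 0.566). *Col4a6* had between 2 and 57 counts per library and an edgeR estimate of 0.53 (SE 1.27, adjusted p = 0.900), which was -0.15 without SAG replicate 3.

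Type VI collagen forms beaded filaments around cells, in cartilage around the chondrocyte. *Col6a1* was at 1535, 1728, 1335 and 663 CPM in DMSO replicates 1 to 4 and 739, 252, 753 and 1017 CPM in SAG replicates 1 to 4. *Col6a2* was at 1637, 1622, 1516 and 939 CPM and 786, 314, 861 and 1248 CPM. *Col6a3* was at 2426, 2753, 1586 and 1075 CPM and 1116, 382, 1009 and 1237 CPM. For all 3, DMSO replicates 1 to 3 were above every SAG-treated mouse, DMSO replicate 4 overlapped the SAG group and SAG replicate 2 was lowest, the arrangement also seen for the cartilage chains. The edgeR estimates were -0.93 (SE 0.39, adjusted p = 0.262), -0.83 (SE 0.35, adjusted p = 0.262) and -1.07 (SE 0.37, adjusted p = 0.171). *Col6a3* had an adjusted p of 0.0369 by DESeq2 and 0.0450 by edgeR without DMSO replicate 4, in a range of 0.0369 to 0.375 over 15 other settings.

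Among the cluster of type VI genes on chromosome 9, *Col6a6* had between 16 and 1731 counts per library and *Col6a5* between 0 and 435, both highest in DMSO replicate 1. *Col6a4* had 0, 1, 0 and 1 counts in DMSO replicates 1 to 4 and 20, 37, 23 and 7 counts in SAG replicates 1 to 4, so every SAG-treated mouse was above every DMSO-treated mouse, as in 7.9% of the genes tested. It was below the filter of the main test, and in the edgeR fit without the filter its unadjusted p was 0.0118 and its adjusted p 0.156, and it was singled out after its values were seen. *Col19a1*, the other chain below the filter, had 71 counts over the DMSO libraries and 61 over the SAG libraries, of which 53 were in DMSO replicate 1 and 57 in SAG replicate 3.

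*Col12a1*, which binds to the surface of type I fibrils, was at 2261, 2764, 1634 and 852 CPM in the DMSO group and 1452, 458, 1175 and 823 CPM in the SAG group. DMSO replicates 1 to 3 were above every SAG-treated mouse and DMSO replicate 4 overlapped the SAG group, and the edgeR estimate was -0.94 (SE 0.39, adjusted p = 0.258). *Col15a1*, a chain of the zone beneath basement membranes, was at 312, 245, 214 and 42.6 CPM and 105, 49.0, 98.3 and 137 CPM, and DMSO replicate 4 was the lowest of all 8 mice. Its edgeR estimate was -1.06 (SE 0.49, adjusted p = 0.312) with all mice and -1.37 (adjusted p = 0.0121) without DMSO replicate 4, in a range of 0.0121 to 0.626 over 15 other settings. *Col16a1* and *Col14a1*, further fibril-associated chains, had edgeR estimates of -0.52 (SE 0.41, adjusted p = 0.616) and -0.75 (SE 0.60, adjusted p = 0.621), and that of *Col14a1*, highest in DMSO replicate 1 at 138 CPM beside at most 24.8 CPM in the other control mice, became 0.48 without that mouse. *Col8a2* had an edgeR estimate of -0.29 (SE 0.35, adjusted p = 0.769). The estimates above 0 in the other types belonged to *Col8a1* (0.06), *Col23a1* (0.07), *Col18a1* (0.24) and *Col20a1* (0.37), each smaller than its SE. The remaining 7 chains were *Col7a1*, *Col13a1*, *Col17a1*, *Col22a1*, *Col24a1*, *Col25a1* and *Col26a1*. They had edgeR estimates between -0.98 (*Col24a1*) and -0.33 (*Col25a1*), mean levels of at most 35.2 CPM in the DMSO group, and groups that overlapped. *Col22a1* was at 71.8 CPM in DMSO replicate 1, at most 2.41 CPM in the other control mice and 6.03 to 20.3 CPM in the SAG group. Its estimate was -0.78 (SE 1.12) by edgeR but 0.81 by limma voom, and DESeq2 gave no p for it.

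Ratios of the counts of paired chains within a library do not depend on library size, and 9 of 11 pairs were tested by exact 2-sided permutation over the 70 relabellings of the mice. *Col9a2* to *Col9a3*, whose products share the type IX molecule, was at 1.14, 1.12, 1.07 and 1.24 in DMSO replicates 1 to 4 and 1.06, 0.975, 0.984 and 0.944 in SAG replicates 1 to 4. All SAG-treated mice were below all DMSO-treated mice, and the exact permutation p was 0.0286, the smallest this design allows, or 0.257 adjusted over the 9 pairs. A single separated pair therefore could not pass the adjusted threshold, so its failure to pass is not informative. *Col9a1* to *Col9a2* was 1.85 ± 0.191 in the DMSO group and 1.99 ± 0.244 in the SAG group (SD, n = 4, exact permutation p = 0.429). *Col11a1* to *Col11a2* was 1.36 ± 0.236 and 1.36 ± 0.0728 (SD, n = 4, exact permutation p = 0.971), and *Col6a1* to *Col6a2* was 0.897 ± 0.149 and 0.859 ± 0.0631 (SD, n = 4, exact permutation p = 0.714). Ratios of these 4 pairs lay between 0.706 and 2.17 in all libraries.

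The type I pair was less even. *Col1a1* to *Col1a2* was at 2.16, 0.943, 0.790 and 0.743 in DMSO replicates 1 to 4 and 1.12, 3.47, 1.07 and 0.683 in SAG replicates 1 to 4, with DMSO replicate 1 and SAG replicate 2 standing above the rest and a difference between the groups within the spread of the mice (exact permutation p = 0.571, n = 4 each). *Col2a1* to *Col1a1*, the cartilage fibril against the bone fibril, was at 11.5, 89.5, 64.6 and 60.6 in the DMSO group and 30.4, 3.91, 37.6 and 45.5 in the SAG group. SAG replicate 2 and DMSO replicate 1 had the lowest ratios and the groups overlapped (exact permutation p = 0.4, n = 4 each). *Col4a1* to *Col4a2* ranged from 0.263 to 0.710, with the wider spread in the DMSO group. *Col5a1* to *Col5a2* ranged from 0.481 to 1.18 and *Col8a1* to *Col8a2* from 0.180 to 0.592, with overlapping groups. The ratio of *Col4a3* to *Col4a4* and that of *Col4a5* to *Col4a6* were not tested because a count was under 10.

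**Figure D5:**
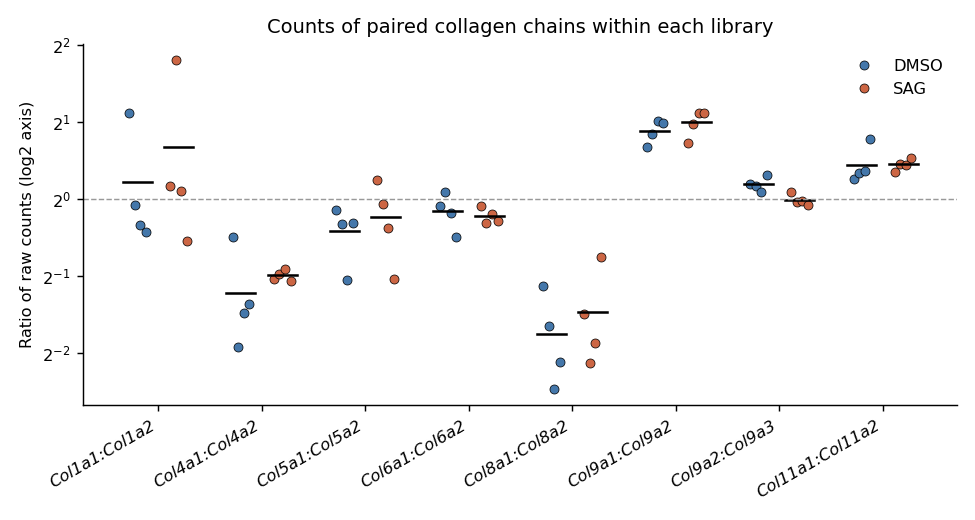
Ratio of the raw counts of 2 chains in each DMSO-treated (blue) and SAG-treated (orange) mouse on a log2 axis, with the mean of each group as a bar and equal counts as a dashed line. *Col9a2* to *Col9a3* is 1.14 in DMSO-treated and 0.991 in SAG-treated mice without overlap, whereas the other 7 pairs overlap.

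Collagen chains are modified and folded in the endoplasmic reticulum before export. For comparison, 54.8% of all tested genes were below 0 and 6.5% were lower at an unadjusted p under 0.05 by edgeR. DESeq2 called 3.35% of all genes lower and limma voom 2.58%. Of 19 genes of folding and modification in the table, 17 had a log2 fold change below 0 (median -0.50), 0 were called by edgeR, 4 were lower at an unadjusted p under 0.05, and DESeq2 called 1 and limma voom 2 lower. *Plod2*, a lysyl hydroxylase, had the smallest p and an edgeR log2 fold change of -1.23 (SE 0.30, adjusted p = 0.0538). *Crtap*, a subunit of the prolyl 3-hydroxylation complex, was at -0.84 (SE 0.32, adjusted p = 0.204) by edgeR and *Colgalt2*, a collagen galactosyltransferase, at -1.09 (SE 0.45, adjusted p = 0.257). Of 18 genes of export, processing and crosslinking, 14 were below 0 (median -0.59), 0 were called by edgeR, 5 were lower at an unadjusted p under 0.05, and DESeq2 called 3 and limma voom 5 lower. Among them were *Adamts3*, which trims the amino end of procollagen II, at -1.40 (SE 0.37, adjusted p = 0.0743) by edgeR, and the lysyl oxidase-like crosslinking enzymes *Loxl4* at -1.31 (SE 0.36, adjusted p = 0.0776) and *Loxl3* at -1.04 (SE 0.32, adjusted p = 0.112).

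Of 12 collagen receptors, 11 had estimates below 0 (median -0.78), 0 were called by edgeR, 5 were lower at an unadjusted p under 0.05, and DESeq2 called 0 and limma voom 2 lower. The shares over all genes were 54.8% below 0, 6.5% lower at the unadjusted p, and 3.35% and 2.58% called lower by DESeq2 and limma voom. *Itga2*, an integrin subunit that binds collagen, was at -2.83 (SE 0.95, adjusted p = 0.150) by edgeR. Its level was low, at 4.08, 2.41, 2.32 and 21.4 CPM in DMSO replicates 1 to 4 and at most 1.81 CPM in the SAG group, with DMSO replicate 4 far above the rest. *Mrc2*, which takes collagen up into cells, was at -0.90 (SE 0.36, adjusted p = 0.236) by edgeR. *Ddr2*, a receptor tyrosine kinase for fibrillar collagen, was at -0.76 (SE 0.33, adjusted p = 0.284) by edgeR. Of 16 transcription factors linked to collagen genes, 13 had estimates below 0 (median -0.62), 0 were called by edgeR, and 6 were lower and 1 higher at an unadjusted p under 0.05. DESeq2 called 3 of them lower, and limma voom called 5 lower and 1 higher. This list shares *Sox9*, *Sox5*, *Sox6*, *Runx2*, *Sp7*, *Scx*, *Mkx* and *Nfatc1* with the cell type lists above, so these sets are not separate. The limma voom calls of *Sox9* and *Sox5* are counted in both. *Mef2c* and *Runx3*, which act in chondrocyte hypertrophy, were at -1.03 (SE 0.25, adjusted p = 0.0508) and -1.09 (SE 0.31, adjusted p = 0.0859) by edgeR, and *Sp3*, which binds GC boxes, at 0.66 (SE 0.20, adjusted p = 0.110). The summed level of the transcription factors was 2368 to 3311 CPM in the DMSO group and 1612 to 2492 CPM in the SAG group, and DMSO replicate 4 was again within the SAG range.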

How the data were processed

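RNA-seq of sorted mCherry+CD73+ cells was taken from 8 libraries, 4 of each treatment, each from a different mouse. The authors deposited unscaled counts of each gene in each library. All values are whole numbers. The submitters' processing notes name kallisto, DESeq2 and GRCm38 without versions or roles. If the counts are rounded kallisto estimates, reads shared between similar chains were divided by a model, and how the table was made is otherwise not given in the sources used here. Libraries were prepared from total RNA with a stranded kit for picogram inputs. No library pair differed by as little as sampling noise.

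Comparisons were made in R 4.3.3 by edgeR 4.0.16 (filterByExpr, TMM, robust quasi-likelihood test, Benjamini-Hochberg adjustment over 15421 genes, threshold 0.05), without covariates. CPM used TMM factors. Alternatives were DESeq2 1.42.0, limma 3.58.1 (voom with quality weights), other scalings and count filters (at least 10 counts in every library, or none), a replicate block and each library left out in turn. Scripts were tested on simulated data. Chain ratios were tested by exact 2-sided permutation. Annotation was GENCODE M21 (GRCm38), which held 16524 of 16536 symbols and all 42 chains. Promoter windows were from RefSeq. Members and gene lists were chosen with earlier results of these data known. Named chains were all tested cartilage, type I, III, V and IV chains, other chains called by edgeR or DESeq2 and the 8 others with the highest mean CPM, and in each pathway list the 3 genes with the smallest p, together with *Col6a4* and other sparse chains, which were named after their values were seen. Replicates are separate mice, and replicate numbers do not pair them (correlation of same-numbered deviations 0.12, 0.022, 0.019 and 0.010). Depth per library was 24971992 to 46593090 counts. The floors of 3 counts cover counting error only, whereas the 95% edgeR intervals also include the spread between mice.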

Additional observations from a re-analysis of the deposited data

Results flagged for a closer look

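In 9 of 82 sets of 4 mice, 1 mouse lay far from the other 3, measured as its gap to the nearest mouse divided by the range and judged by Dixon's test at the 95% level. The sets were levels of the named chains, tested count ratios and shares of all counts. Chains that were not named were left out, among them *Col22a1*, at 71.8 CPM in DMSO replicate 1 beside at most 2.41 CPM in the other control mice. Levels and shares were judged on the linear scale and ratios on the log2 scale. For values normally distributed on the scale used, chance gives about 1 such set in 20, or 4.1 of 82. Whether the levels and shares keep to a normal distribution, or stay flagged on a log scale, was not tested. The count of 9 therefore holds for these scales only, and its excess over 4.1 is not evidence of outlying mice by itself. DMSO replicate 1 accounted for 6 of the 9 sets. Its *Col1a1* level (gap ratio 0.945, 5971 CPM beside at most 832 CPM), *Col1a2* (0.831), *Col3a1* (0.885), *Col5a1* (0.881) and *Col14a1* (0.959) were above the other control mice, and its types I, III and V held 1.26% of all counts beside at most 0.303% (0.901). SAG replicate 2 accounted for the other 3. Its *Col1a1* level was 3008 CPM beside at most 1020 CPM (0.881), its *Col2a1* to *Col1a1* ratio was 3.91 beside at least 30.4 (0.836 on the log2 scale used for ratios, and 0.638, under the 95% limit, on the linear scale), and the chains of other types held 0.164% of its counts beside at least 0.431% (0.833).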

How the results depend on the processing

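Of 403 other estimates of the 27 named chains, 394 kept their direction and 20 were under the adjusted threshold. These 403 leave out the scaling on chondrocyte genes, for which only calls and group medians were taken. Chains called lower numbered 5 by DESeq2 and 6 by limma voom, and 0 to 9 when a library was left out, with 9 without DMSO replicate 4. No setting called a chain higher. With libraries scaled on chondrocyte genes the medians were -0.17 (cartilage), 0.49 (types I, III and V), 0.28 (type IV) and 0.40 (other types). With a library left out they were -1.22 to -0.78, -0.73 to 0.35, -0.82 to -0.33 and -0.97 to -0.25. The cause was not tested.

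Among the 27 named chains, estimates turned sign for 7 when 1 library was left out. Their ranges were -1.24 to 1.03 (*Col1a1*), -0.75 to 0.12 (*Col1a2*), -1.04 to 0.92 (*Col3a1*), -0.84 to 0.57 (*Col5a3*), -0.81 to 0.44 (*Col4a1*), -1.01 to 0.48 (*Col14a1*) and -0.15 to 1.59 (*Col4a6*). DMSO replicate 1 was the library behind all of these except *Col4a6*, which turned without SAG replicate 3. The remaining chains were not taken into this count. Among them *Col22a1* and *Col6a5* were also far higher in DMSO replicate 1 (71.8 and 10.1 CPM) than in the other control mice (at most 2.41 and 0.692 CPM). With the replicate block 0 chains were called, and *Col1a1* and *Col3a1* turned to 0.0508 and 0.167. The numbers do not pair the mice: 3 of 4 correlations of same-numbered mice were under 0.1, and of the DMSO mice numbers 1 and 3 correlated best with their own number. The block moved calls over all genes from 404 higher and 41 lower to 334 and 18.

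Left-out libraries also turned the log2 difference of count ratios for *Col1a1* to *Col1a2* (-0.161 to 0.661), *Col11a1* to *Col11a2* (-0.0414 to 0.131), *Col5a1* to *Col5a2* (-0.0508 to 0.393) and *Col6a1* to *Col6a2* (-0.161 to 0.0368). No pair passed the adjusted threshold, which a single pair could not do with 4 mice per group and 9 pairs. Low counts limit sparse chains, of which *Col4a4*, *Col4a6*, *Col6a4*, *Col6a5*, *Col13a1*, *Col17a1*, *Col19a1* and *Col23a1* had libraries with under 3 counts. Such counts were not confined to libraries of low depth. *Col13a1* had 0 counts in SAG replicate 4, which had the highest total (46593090 counts).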
